A study of Mus musculus with 20 samples.

Results

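The interleukin-6 (IL-6) family was followed through 10 genes of muscle fibroadipogenic progenitors: the ligand genes Il6, Lif, Il11 and Clcf1, the receptor chain genes Il6ra, Lifr, Osmr, Il11ra1 and Il6st, and Stat3. The genes were taken by symbol from a fixed list, and all 10 were found among the 24394 symbols shared by the 3 deposited tables, one table for each day. Fibroadipogenic progenitors are muscle stroma able to become fibroblasts or fat cells, and the sort of hindlimb muscle from male C57BL/6J mice kept live nucleated cells that carried SCA-1 and lacked CD31, CD45 and α7-integrin. Tumour-bearing mice, called KPC here as in the labels, had 2000000 cells of the KPCY line, a mouse pancreatic tumour line, injected into the pancreas in 50 µL. Control mice had sham surgery and no tumour cells. Day 14 had 3 control and 4 KPC libraries, day 21 had 3 of each, and day 26 had 4 controls and 3 KPC. All KPC mice received the same line, so the comparison is of that line with surgery alone. The labels number the libraries of a group as biological replicates, without saying whether a library pools several mice, so p-values measure the spread between these libraries. The labels leave the age of the mice unsaid. The series is on pancreatic cancer cachexia, the loss of muscle and fat in tumour-bearing hosts.

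Cytokines of the IL-6 family signal through a shared receptor chain, gp130, which Il6st encodes. IL-6 and IL-11 first bind their own chains, encoded by Il6ra and Il11ra1, and these complexes join gp130. The LIF receptor, encoded by Lifr, and the oncostatin M receptor, encoded by Osmr, pair with gp130 themselves and carry signalling parts of their own. Bound gp130 activates Janus kinases, which phosphorylate STAT3, and STAT3 moves to the nucleus and activates genes that include its own inhibitor Socs3. IL-6 and LIF are both known as circulating or local factors in models of cancer cachexia, and stromal cells of muscle are a known source of IL-6 after injury.

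Levels are in counts-per-million (CPM) after one scaling of all 20 libraries, and fold changes come from the edgeR fit of each comparison. A gene is called when its p-value, adjusted by the Benjamini-Hochberg method over all genes tested, is under 0.05, and errors of log2 fold changes are standard errors (SE). Total counts per library ran from 12.9 to 26.4 megacounts. The sort markers Ly6a (SCA-1) and Pdgfra were present in every library, and the CD45 gene Ptprc did not exceed 5.75 CPM. The CD31 gene Pecam1, whose protein the sort selected against, reached 24.7 CPM in controls and 241 CPM in KPC. 10 progenitor markers summed to 95359.8 to 116210.6 CPM in all libraries but KPC replicates 1 and 2 of day 26, which held 38434.6 and 66620.9 CPM. Within that range, every KPC library of day 21 lay below every control of that day. The leading number of the library codes separated KPC from control fully at day 14 and day 21, so the 2 cannot be told apart there. At day 26 the code 227 held control replicates 1 to 3 and KPC replicates 1 and 2. In bulk libraries such as these, fewer cells that express a gene and less RNA per cell cannot be told apart.

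On a scale corrected for transcript length (CPM per kilobase of exon, with exons from GENCODE vM21 on mm10), the receptor chain genes Il11ra1 and Il6st had the highest medians of the family in the 10 control libraries. Il11ra1 had a median of 74.8 CPM per kb (range 61.4 to 91.3) and Il6st of 52.4 CPM per kb (47.0 to 61.8), and the ranges overlap slightly. Stat3 at 17.6 CPM per kb (14.8 to 22.6) and Lifr at 15.8 CPM per kb (9.60 to 18.3) came next and overlapped each other. A lower tier held Il6 (median 7.87 CPM per kb), Lif (7.79), Osmr (6.94) and Il6ra (4.65), which also overlapped. Clcf1, a ligand that acts through Cntfr, the LIF receptor and gp130, lay at 1.16 CPM per kb and below the lowest control value of every gene above it except Il6, and Il11 at 0.336 CPM per kb ended the order, its highest control just overlapping the lowest of Clcf1. Il6 was the most variable of the tier, from 0.617 to 19.0 CPM per kb over the controls. The counts of Il11ra1 are uncertain, because a near-identical copy, Il11ra2, has 0 counts in every library, and no label says how reads shared by both genes were assigned.

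The start regions of 3 members are shown because their messages moved most at day 21: Il6 and Osmr upwards and Lif downwards. They come from the RefSeq promoter table on GRCm38.p6, the assembly also called mm10, and are printed 5′ to 3′ on the gene's strand from 250 bases before the start base. Capitals mark matches to the AP-1 motif TGANTCA or to the NF-kappaB motif, searched on both strands.
Il6, chr5:30012864-30013113, plus strand: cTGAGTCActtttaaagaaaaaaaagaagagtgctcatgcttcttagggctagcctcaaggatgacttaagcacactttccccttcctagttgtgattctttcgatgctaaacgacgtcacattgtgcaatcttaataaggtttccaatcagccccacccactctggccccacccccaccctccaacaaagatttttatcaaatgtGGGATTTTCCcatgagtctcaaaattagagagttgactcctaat
Osmr, chr15:6874294-6874563, minus strand, with 20 bases after the start base: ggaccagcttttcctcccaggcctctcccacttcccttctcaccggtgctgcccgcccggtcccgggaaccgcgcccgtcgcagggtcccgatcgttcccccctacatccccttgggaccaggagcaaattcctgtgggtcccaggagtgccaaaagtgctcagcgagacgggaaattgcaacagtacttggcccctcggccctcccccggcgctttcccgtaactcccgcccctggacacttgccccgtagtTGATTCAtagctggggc
Lif, chr11:4257318-4257567, plus strand: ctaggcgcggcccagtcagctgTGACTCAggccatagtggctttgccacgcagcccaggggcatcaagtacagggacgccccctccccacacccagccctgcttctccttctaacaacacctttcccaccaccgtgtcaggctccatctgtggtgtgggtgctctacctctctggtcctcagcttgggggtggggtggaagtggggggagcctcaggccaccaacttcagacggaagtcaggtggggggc
Counted from the start base, an AP-1 match begins at -249 and an NF-kappaB match at -44 in Il6. Lif has an AP-1 match at -228, and Osmr one at 3, past its start. The 20 further bases printed for Osmr include the start base itself. The same 300-base windows were searched for 9 of the 10 members; Clcf1 was not analysed here. The STAT motif TTCNNNGAA and the CRE motif TGACGTCA were found in no window of the 9, and only Il11 added another AP-1 match, at -98 in its second window. Among 32817 mouse promoter windows of the same length, 8.29% hold the STAT motif, 7.81% the AP-1 motif, 1.79% the CRE motif and 1.63% the NF-kappaB motif. AP-1 and NF-kappaB do not overlap in these windows, and a match describes letters only.

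At day 21, 6 of the 10 genes were called between KPC and control progenitors. Il6, Osmr, Lifr, Il6ra and Stat3 rose and Lif fell, while the shared chain Il6st, the Il11 and Il11ra1 pair and Clcf1 were not called. Of all 13154 genes tested, 6.38% were called higher and 6.11% lower (839 and 804 genes, or 1058 and 613 with scaling by library size alone). The members' median log2 fold change was 0.54, against 0.01 over all genes tested. In 7 of the 10 genes the 2 groups did not overlap, where 31.9% of 14141 genes did not. The plot of levels by library shows these separations gene by gene.

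**Figure D1:**
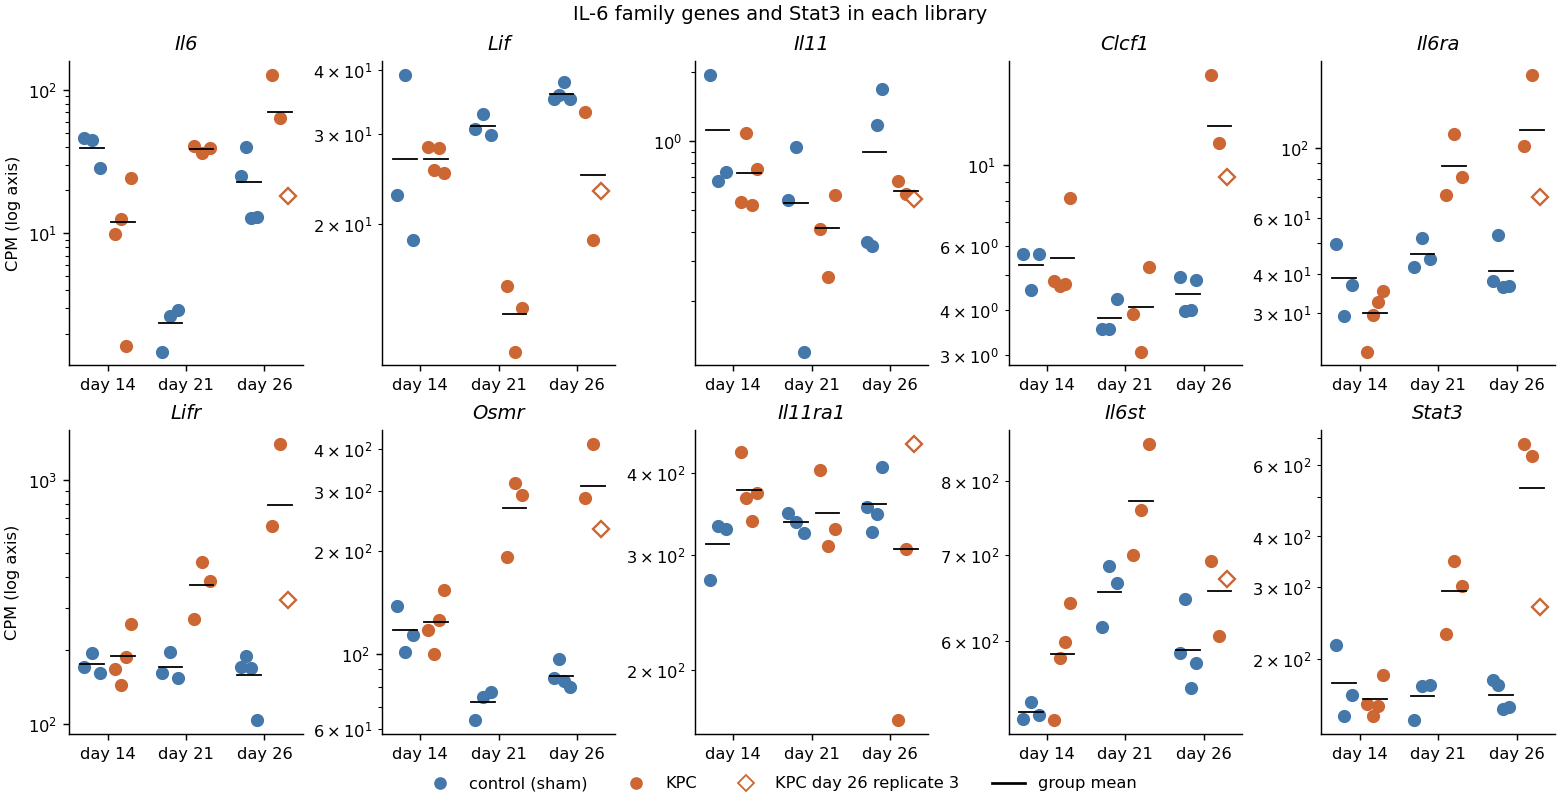
CPM of each of the 10 genes (log axis, a separate scale for each gene) in every library by day, with control libraries in blue, KPC libraries in orange and KPC replicate 3 of day 26 as an open diamond; black lines are group means. At day 21 the KPC libraries sit above all controls for Il6, Il6ra, Lifr, Osmr, Il6st and Stat3 and below them for Lif, and at day 14 most genes overlap.

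Among the ligands, Il6 (chromosome 5, 30013114 to 30019981, plus strand, mm10) moved most. Control libraries of day 21 held 1.50, 2.64 and 2.93 CPM and KPC libraries 40.6, 36.5 and 39.5 CPM. The groups lie far apart and the KPC values close together. The log2 fold change was 4.04 ± 0.23 (adjusted p 3.0e-06), a 16.4-fold difference. The day 21 controls were the lowest controls of the series for Il6, and the KPC mean of 38.9 ± 2.09 CPM (SD, n = 3) was close to the day 14 control mean of 39.6 ± 9.77 CPM (SD, n = 3).

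Lif (chromosome 11, 4257557 to 4272514, plus strand), the gene of leukaemia inhibitory factor, went the other way. It lay at 30.7, 32.7 and 29.9 CPM in controls and at 15.2, 11.3 and 13.7 CPM in KPC, so all 3 KPC libraries were lower. Its log2 fold change was -1.22 ± 0.16 (adjusted p 5.7e-04). These 3 KPC values were also the lowest of Lif in the series, and every other library held at least 18.7 CPM. Clcf1 (chromosome 19, 4214238 to 4223490) overlapped between the groups, with 3.55, 3.54 and 4.29 CPM in controls and 3.88, 3.07 and 5.26 CPM in KPC (log2 0.10, 95% interval -0.64 to 0.83). Il11 (chromosome 7, 4772373 to 4782859) did not exceed 1.94 CPM in any library, and its interval at day 21, -2.38 to 1.70 on the log2 scale, leaves a change of several-fold undetectable at this depth.

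Of the receptor chains, Osmr (chromosome 15, 6813577 to 6874969, minus strand) rose most. Controls held 63.8, 74.8 and 77.4 CPM and KPC libraries 192, 318 and 293 CPM. The lowest KPC library was well above the highest control, and the log2 fold change was 1.89 ± 0.17 (adjusted p 1.0e-04). Lifr (chromosome 15, 7090614 to 7197489, plus strand) rose from 161, 197 and 154 CPM to 270.1, 460.1 and 385 CPM, by 1.11 ± 0.18 on the log2 scale (adjusted p 0.0034). Il6ra (chromosome 3, 89864059 to 89913196, minus strand), which lets a cell bind IL-6 directly, rose from 42.2, 52.2 and 44.7 CPM to 71.1, 111 and 81.2 CPM, by 0.91 ± 0.16 (adjusted p 0.0037). KPC replicate 2 was the highest of the day for all 3 of these chains.

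The gp130 gene Il6st (chromosome 13, 112464070 to 112510086, plus strand) also separated the groups, but by little. Its controls held 615, 686 and 666 CPM and its KPC libraries 701, 759 and 855 CPM, a log2 fold change of 0.23 ± 0.11 that was not called (adjusted p 0.220, 95% interval -0.02 to 0.47). Il11ra1 (chromosome 4, 41699989 to 41769474, plus strand) overlapped, with 348, 337 and 324 CPM in controls and 405, 309 and 328 CPM in KPC. Stat3 (chromosome 11, 100885098 to 100939540, minus strand), the transcription factor downstream of the whole family, rose from 141, 172 and 173 CPM to 229.9, 348 and 302 CPM, by 0.85 ± 0.15 on the log2 scale (adjusted p 0.0037). It shares 72 exon bases (0.8%) with Stat5a on the opposite strand, and no label says whether counting used the strand.

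These 6 calls were present in each of the 6 fits that left out 1 library. In one fit of all 20 libraries, which shares the spread of the other days, only Il6, Osmr and Lif were called (436 of 14141 genes, 3.08%, were called there), with Stat3 at an adjusted p of 0.0616, Il6ra at 0.0695 and Lifr at 0.106. Markers of other cells moved at day 21 too. The fit of day 21 called 6.38% of all genes higher and 6.11% lower. 7 of 12 endothelial markers were called higher and 1 lower, and their summed level was 572 to 607 CPM in controls and 1115, 708 and 543 CPM in KPC replicates 1 to 3. The 12 macrophage and monocyte markers summed to 15.6 to 28.7 CPM in controls and to 97.9, 40.8 and 22.9 CPM in KPC, with Fcgr1 at 0 in all 3 controls. Of 10 progenitor markers 1 was called higher and 5 lower. Their summed level was 109666.5 to 116210.6 CPM in controls and lower in every KPC library, at 95359.8, 98888.7 and 105559.2 CPM. Mural markers had 2 higher and 1 lower of 7 tested and glial markers 1 and 1 of 8. Among 9 myofibre, 2 satellite cell, 5 tenocyte, 2 neutrophil and lymphocyte and 3 tumour epithelial markers tested edgeR called none. All 9 myofibre markers had fold changes above 0 (median log2 2.59, 2 at an unadjusted p under 0.05), and their sum was 472 CPM in KPC replicate 1 against 25.4 to 49.6 CPM in controls. Both neutrophil and lymphocyte markers had an unadjusted p under 0.05 (median log2 3.44) and did not overlap between the groups. The endothelial, macrophage and myofibre sums were highest in KPC replicate 1, which had the lowest KPC value of Osmr, Lifr, Il6ra, Il6st and Stat3 and the highest of Il6, Lif and Il11ra1. In KPC replicate 3 the endothelial sum lay below the control range and the macrophage sum within it, and the neutrophil and lymphocyte sum of 2.14 CPM lay above the highest control, at 1.60 CPM. The part of these cells in the members' results was not tested.

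**Figure D2:**
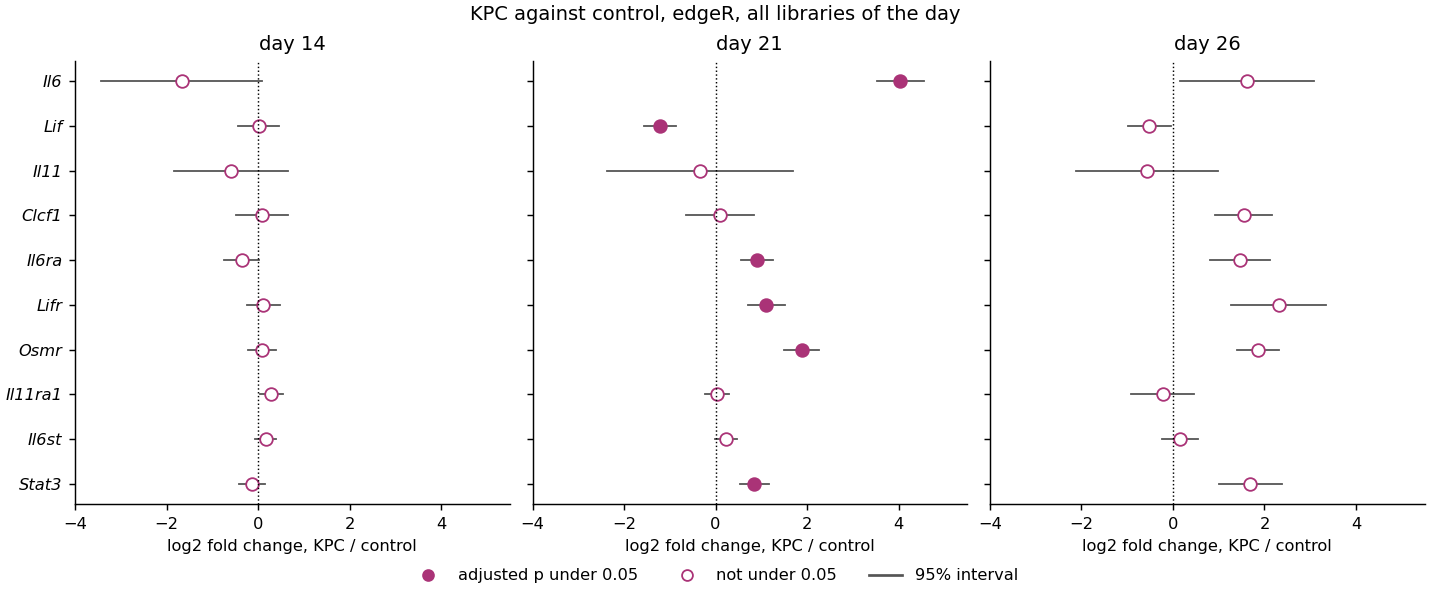
Log2 fold change of KPC against control for the 10 genes at each day (points, with the 95% interval as a bar); filled points have an adjusted p under 0.05. At day 21 the filled points are Il6 at 4.04, Osmr at 1.89, Lifr at 1.11, Il6ra at 0.91, Stat3 at 0.85 and Lif at -1.22, and no point is filled at day 14 or day 26.

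At day 14 none of the 10 genes was called, where 1.12% of 13344 genes were called in either direction. In the edgeR test 1 of the 10 passed at an unadjusted p under 0.05 (Il11ra1), against 14.3% of all genes tested, and DESeq2 called 0 of the 10. The members' median log2 fold change was 0.05. Il6 had the largest difference, and it was in the opposite direction to day 21. Its control libraries held 46.0, 44.4 and 28.4 CPM and its KPC libraries 9.84, 12.6, 1.65 and 24.2 CPM, so all 4 KPC libraries lay below all 3 controls. The KPC values spread widely and the log2 fold change of -1.67 ± 0.71 was not called (adjusted p 0.373, 95% interval -3.43 to 0.09).

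Il11ra1 was the other gene without overlap at day 14, at 274, 332 and 329 CPM in controls and 431, 367, 338 and 372 CPM in KPC (log2 0.29 ± 0.12, adjusted p 0.271). Across all genes, 13.0% did not overlap at this day. The genes that separated the groups at day 21 mostly overlapped here. Osmr lay at 138, 101 and 114 CPM in controls and 117, 99.5, 125 and 154 CPM in KPC, and its 95% interval was -0.22 to 0.39 on the log2 scale. Lifr (interval -0.23 to 0.47) and Stat3 (-0.41 to 0.16) overlapped likewise. For these 3 genes the day 14 intervals lie below the day 21 fold changes, which have errors of their own. The edgeR test of the difference between these days called Osmr (adjusted p 0.0028) but not Lifr (0.357) or Stat3 (0.178). Lif held 22.8, 39.1 and 18.7 CPM in controls and 28.3, 25.5, 28.1 and 25.2 CPM in KPC, and Il6ra 49.9, 29.5 and 37.0 CPM and 22.7, 29.6, 32.5 and 35.3 CPM. Il6st (log2 0.16 ± 0.10), Clcf1 (0.09 ± 0.26) and Il11 (-0.60 ± 0.58) overlapped as well. Of the endothelial markers 10 of 12 did not overlap between the groups at day 14, with sums of 421 to 519.8 CPM in controls and 595 to 815 CPM in KPC. edgeR called 2 of these 12 higher, with 1 of 8 mural and 1 of 3 satellite cell markers, where 1.12% of all genes were called. All tested myofibre (9), mural (8), glial (8), tenocyte (6) and neutrophil and lymphocyte (4) markers had fold changes above 0. So did 9 of 10 macrophage and monocyte markers and 5 of 10 progenitor markers. The part of these cells in the members' values was not tested.

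At day 26, edgeR called none of 13157 genes (0.00%) and therefore none of the 10. 6 of the 10 were higher and 1 was lower in KPC at an unadjusted p under 0.05, where 20.3% of all genes were higher and 13.9% lower at that threshold. These were Stat3, Osmr, Lifr, Clcf1, Il6ra and Il6, with Lif lower. DESeq2 called the same 6 higher genes, and called 13.7% of all genes higher. One fit of all 20 libraries called 5 of them, without Il6 (adjusted p 0.0572), and 19.0% of all genes higher. The 10 genes had a median log2 fold change of 1.51, against -0.0029 over all genes tested, and 6 did not overlap between the groups, where 27.8% of all genes did not.

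Osmr lay at 85.0, 96.3, 83.2 and 79.9 CPM in controls and at 287, 414 and 232 CPM in KPC, listed by replicate. All 3 KPC libraries were above every control, and the log2 fold change was 1.85 ± 0.20 (adjusted p 0.0592), near the value of day 21. Lifr lay at 172, 191, 169 and 104 CPM in controls and at 648, 1410.0 and 321 CPM in KPC (2.31 ± 0.45, adjusted p 0.0592). Its highest KPC value was also its highest in the series. Stat3 lay at 177, 172, 150.3 and 152 CPM in controls and at 678, 631 and 268 CPM in KPC (1.69 ± 0.30, adjusted p 0.0592). Il6ra lay at 38.1, 53.2, 36.3 and 36.5 CPM and at 102, 171 and 70.2 CPM (1.47 ± 0.28, adjusted p 0.0592). In Osmr, Lifr, Stat3 and Il6ra, KPC replicate 3 was the lowest KPC library and still above every control of that day.

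Clcf1 separated the groups at day 26, which it had not at day 14 or day 21. It lay at 4.91, 3.97, 3.99 and 4.82 CPM in controls and at 17.8, 11.5 and 9.30 CPM in KPC, above the highest value of any other library, 8.14 CPM. Its log2 fold change was 1.55 ± 0.27 (adjusted p 0.0592), where day 14 and day 21 had given 0.09 and 0.10. Il6 varied within both groups, with 25.2, 40.0, 12.8 and 13.1 CPM in controls and 127, 63.4 and 18.1 CPM in KPC, and replicate 3 lay within the control range (1.62 ± 0.63, adjusted p 0.122). Lif lay at 35.1, 35.7, 37.8 and 35.1 CPM in controls and at 33.1, 18.7 and 23.2 CPM in KPC, all 3 lower (-0.51 ± 0.20, adjusted p 0.124). Il6st at 551 to 647 CPM in controls and 692, 605 and 670.2 CPM in KPC overlapped. Il11 had a log2 fold change of -0.56 ± 0.68. Il11ra1 spread in KPC, at 168, 306 and 444 CPM, around controls of 325 to 408 CPM.

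The number of calls at day 26 changed with KPC replicate 3. Without it, edgeR called Il6, Osmr, Lifr, Il6ra, Clcf1 and Stat3 higher and Il11ra1 lower (log2 -0.63, adjusted p 0.0418), among 25.7% of all genes called higher and 25.9% lower. Within the libraries of code 227 the 6 higher genes were called as well, with Stat3 at 1.97 (adjusted p 1.8e-04), Osmr at 1.98 (2.7e-04) and Lifr at 2.52 (0.0010), where 24.3% of all genes were called higher; this set also leaves out replicate 3. Leaving out any other library of the day gave 0 called members. KPC replicate 1 held the most endothelial and the most macrophage and monocyte signal of the day. Its endothelial markers summed to 1269 CPM against 394 to 577 CPM in controls. Its macrophage and monocyte markers summed to 444 CPM against 18.6 to 27.3 CPM. The glial sums of all KPC libraries of the day, 391, 346 and 517 CPM by replicate, lay below the controls, at 592 to 654.5 CPM. KPC replicate 2 held 358 CPM of endothelial markers, below the controls, and 43.6 CPM of macrophage and monocyte markers, above them, and it had the highest Osmr, Lifr and Il6ra of the series. In KPC replicates 1 and 2 the progenitor marker sum was also below all other libraries, and its part in these results was not tested.

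The KPC effect was compared between days in one fit of all 20 libraries. From day 14 to day 21 it increased for Il6 by 5.73 ± 1.01 on the log2 scale (adjusted p 0.0142) and for Osmr by 1.82 ± 0.28 (adjusted p 0.0028), where 0.537% of 14141 genes were called higher. Il6 lost this call without control replicate 1 (adjusted p 0.0874) or replicate 2 (0.0641) of day 21. Lif had -1.21 ± 0.30 and was not called (adjusted p 0.0696), nor was Il6ra (1.29, 0.125), Stat3 (1.00, 0.178) or Lifr (1.02, 0.357). DESeq2 called Il6ra and Lif as well, with adjusted p of 0.0301 and 0.0160. It called 391 of all genes in either direction, where edgeR called 76 higher and 15 lower. Libraries of day 26 enter this fit through the shared spread. Without KPC replicate 3 of day 26, Il6ra, Lif and Stat3 were called too (adjusted p 0.0215, 0.0155 and 0.0065), and without KPC replicate 2 Il6ra and Lif were (0.0380 and 0.0318). Of all genes, 956 were called in either direction without replicate 3 and 189 without replicate 2. Lif was also called without KPC replicate 1 of day 26 (0.0300) or control replicate 2 of day 14 (0.0049). The Il6 and Osmr differences hold changes in both groups. From day 14 to day 21 the Il6 mean went from 39.6 to 2.36 CPM in controls and from 12.1 to 38.9 CPM in KPC. The Osmr mean went from 118 to 72.0 CPM in controls and from 124 to 268 CPM in KPC.

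From day 14 to day 26, 6 of the 10 effects increased, where 9.60% of genes were called higher. They were Il6 (3.30 ± 0.90, adjusted p 0.0269), Lifr (2.21 ± 0.49, 0.0125), Il6ra (1.85 ± 0.35, 0.0088), Stat3 (1.83 ± 0.32, 0.0069), Osmr (1.78 ± 0.27, 0.0037) and Clcf1 (1.47 ± 0.37, 0.0188). The Il6 call was lost in 7 of the 20 fits that left out a library, with adjusted p from 0.0506 to 0.0841: without control replicate 3 or 4 or KPC replicate 1 or 2 of day 26, and without control replicate 1 or 2 or KPC replicate 1 of day 14. Without KPC replicate 1 of day 26 its value was 2.53. Il11ra1 was called lower without KPC replicate 3 of day 26 (-0.88, 0.0051), Lif lower without control replicate 2 of day 14 (-0.89, 0.0315), and the Clcf1 call was lost without KPC replicate 1 of day 26 (0.0594) or control replicate 1 of day 14 (0.0505). From day 21 to day 26 edgeR called no gene (0.00%) and DESeq2 0 of the 10, while 12.9% of genes had an unadjusted p under 0.05 in edgeR and 5 of the 10 members did. Clcf1 (1.44 ± 0.39, adjusted p 0.243), Lifr (1.20 ± 0.51, 0.344) and Stat3 (0.83 ± 0.33, 0.325) were called without KPC replicate 3 of day 26, at adjusted p of 0.0051, 0.0112 and 8.1e-04. Leaving out that library raised the calls among all genes from 0 to 3201 in either direction. Il6 had -2.43 ± 0.99 (adjusted p 0.333), Lif 0.69 ± 0.29 (0.343) and Osmr -0.04 ± 0.28 (0.966) between these days. The day 21 and day 26 comparisons share no library.

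Control progenitors also differed between days, and each day has its own table and library codes, so that day and table cannot be told apart. From day 14 to day 21, Il6 and Osmr were lower and Il6st higher, where 13.5% of 13391 genes were called lower and 9.92% higher (1809 and 1329 genes, or 2331 and 652 with scaling by library size alone). Il6 fell from a control mean of 39.6 to 2.36 CPM (log2 -4.05 ± 0.55, adjusted p 0.0015) with no overlap, and Osmr from 138, 101 and 114 CPM to 63.8, 74.8 and 77.4 CPM (-0.69 ± 0.12, adjusted p 8.1e-04). Il6st rose by 0.33 ± 0.10 (adjusted p 0.0200), from 522, 538 and 526 CPM to 615, 686 and 666 CPM, but this call was lost with scaling by library size alone (adjusted p 0.103) and in the fit of all 20 libraries (0.151). It was also lost without control replicate 2 (0.0802) or 3 (0.0537) of day 21 and without control replicate 1 (0.0593) or 3 (0.0634) of day 14.

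From day 21 to day 26 edgeR called none of the 10 in controls, where 0.478% of all genes were called and 12.1% had an unadjusted p under 0.05. Il6 lay at 25.2, 40.0, 12.8 and 13.1 CPM at day 26, all above the 3 controls of day 21 (log2 3.26 ± 0.53, adjusted p 0.0510). DESeq2 called it (adjusted p 3.8e-09), and edgeR did without control replicate 2, 3 or 4 of day 26 (0.0048, 0.0304 and 0.0335). Between day 14 and day 26 only Osmr was called in controls (-0.44 ± 0.11, adjusted p 0.0106, lower), a call lost without control replicate 1 of day 14 (0.0721) and in the fit of all 20 libraries (0.171). Of all genes 12.6% were called lower and 9.70% higher between these days (1693 and 1299 genes, or 2326 and 692 with scaling by library size alone). Without control replicate 2 of day 26 Il6 was also lower than at day 14 (-1.22, adjusted p 0.0149), and without control replicate 2 of day 14 Lif was higher (0.81, adjusted p 3.0e-04). Stat3, Lifr, Il6ra, Il11, Il11ra1 and Clcf1 were not called between control days in the fit of the 10 controls. Over all 10 controls Il6 ranged from 1.50 to 46.0 CPM, Stat3 from 141 to 216 CPM and Il6st from 522 to 686 CPM.

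Il6st had the smallest ratio of highest to lowest CPM over the 20 libraries, 1.64, although it was called higher in controls of day 21 than of day 14. The other chains were set against it within each library, as CPM per kb divided by Il6st CPM per kb. In the 10 controls Osmr stood at 0.095 to 0.243 of Il6st, Il6ra at 0.0704 to 0.123, Lifr at 0.185 to 0.375 and Il11ra1 at 1.21 to 1.76. At day 21 the KPC libraries stood at 0.252, 0.383 and 0.314 for Osmr, at 0.397, 0.624 and 0.464 for Lifr and at 0.130, 0.187 and 0.122 for Il6ra. For Osmr and Lifr these lie above every control of the series. At day 26 the Lifr ratio reached 0.964, 2.40 and 0.494, so that in KPC replicate 2 the LIF receptor message exceeded the gp130 message per length. The Il11ra1 ratio was lowest in KPC replicate 1 of day 26, at 0.601. The day 14 KPC ratios overlapped the day 14 controls for Osmr, Lifr and Il11ra1. For Il6ra they only just overlapped, with a highest KPC ratio of 0.07044 and a lowest control ratio of 0.07041. The plot of receptor ratios shows each library.

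**Figure D3:**
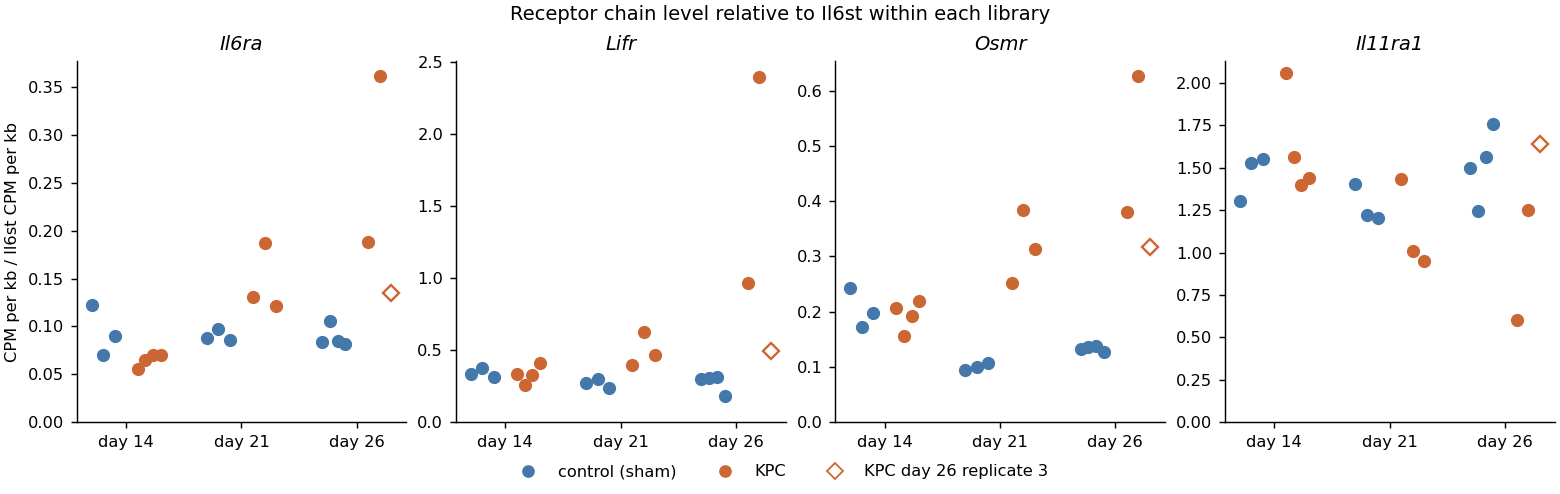
Level of 4 receptor chains relative to Il6st, both as CPM per kb, in each library by day (linear axes from 0; control blue, KPC orange, KPC replicate 3 of day 26 as an open diamond). Osmr rises from 0.095 to 0.106 in day 21 controls to 0.252 to 0.383 in KPC, and one day 26 KPC library reaches 2.40 for Lifr.

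The rest of the pathway was read from 4 lists. Of 12 other family ligands and receptors only 4 were abundant enough to be tested. Cntfr, a receptor chain for ciliary neurotrophic factor, rose at day 21 (log2 0.74 ± 0.13, adjusted p 0.0042) from a mean of 47.0 to 78.8 CPM. At day 14 its KPC libraries, at 57.4 to 79.2 CPM, also lay above its controls, at 47.3 to 50.5 CPM. The day 26 means were 48.0 CPM in controls and 77.6 CPM in KPC, with KPC replicate 1 within the control range. Cntfr was not called at day 14 or day 26. Osm, the ligand of the Osmr receptor, was near the limit of detection with 3, 0 and 0 counts in day 21 controls, and was highest in KPC replicate 1 of day 26 at 4.91 CPM, the library with the most macrophage signal, whose part in this level was not tested. Ctf2 had no count in any library. Among 14 genes of receptor-proximal signalling edgeR called none for KPC against control at any of the 3 days, and their median log2 fold change at day 21 was 0.02. At day 14 and at day 26, 1 was higher and 1 lower at an unadjusted p under 0.05. At that threshold 14.3% of all genes passed in either direction at day 14, and 20.3% were higher and 13.9% lower at day 26. Jak1, a kinase bound to gp130, had log2 fold changes of 0.0041, -0.03 and -0.07 at days 14, 21 and 26, and Jak2 and Tyk2 were not called.

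Of 10 brakes and shedding enzymes, 2 rose and 2 fell at day 21, where 6.38% of all genes were called higher and 6.11% lower. Socs3, the feedback inhibitor that binds gp130, rose from 446, 534 and 358 CPM to 1861, 1896 and 1562 CPM (1.98 ± 0.15, adjusted p 2.3e-05), and Cish, a SOCS family gene better known as a STAT5 target, rose from a mean of 0.892 to 14.9 CPM (4.03 ± 0.32, adjusted p 2.4e-05). Adam17, which sheds the IL-6 receptor from the cell surface, fell by 0.37 ± 0.10 (adjusted p 0.0358), and Pias3, an inhibitor of STAT3, by 0.53 ± 0.13 (adjusted p 0.0232). At day 26 KPC libraries held 7592, 5844 and 1599 CPM of Socs3, listed by replicate, and controls 1697, 1573, 1172 and 989 CPM, so replicate 3 lay within the controls. Controls of day 26 held more Socs3 than those of day 21 (1.60 ± 0.22, adjusted p 0.0118), in the same direction as Il6.

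Of 22 genes known as STAT3 targets, 21 could be tested at day 21 and 16 were called higher and 0 lower, where 6.38% of all genes were called higher, with a median log2 fold change of 1.40 against 0.01 over all genes. The largest rises were in the acute phase and secreted genes Lrg1 (4.33 ± 0.73, adjusted p 0.0110), Lcn2 (3.47 ± 0.37, 2.0e-04) and Hp (3.07 ± 0.46, 0.0014). Pim1, a survival kinase, rose by 2.23 ± 0.18 and Myc by 1.85 ± 0.10, 2 examples chosen after their values were seen. The 5 tested genes that were not called were Timp1, Il4ra, Hif1a, Vegfa and Ccnd1, with log2 fold changes of 0.68, 0.54, 0.02, -0.0030 and -0.86. Ccnd1, a cell cycle gene, was lower at an unadjusted p under 0.05 (adjusted p 0.0811). Many of these genes answer to other signals as well. At day 14, 0 of 21 were called and the median was -0.08. At day 26 edgeR called none, 17 of 22 were higher at an unadjusted p under 0.05, where 20.3% of all genes were, and the median was 1.79. Socs3 is counted both here and among the brakes.

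**Figure D4:**
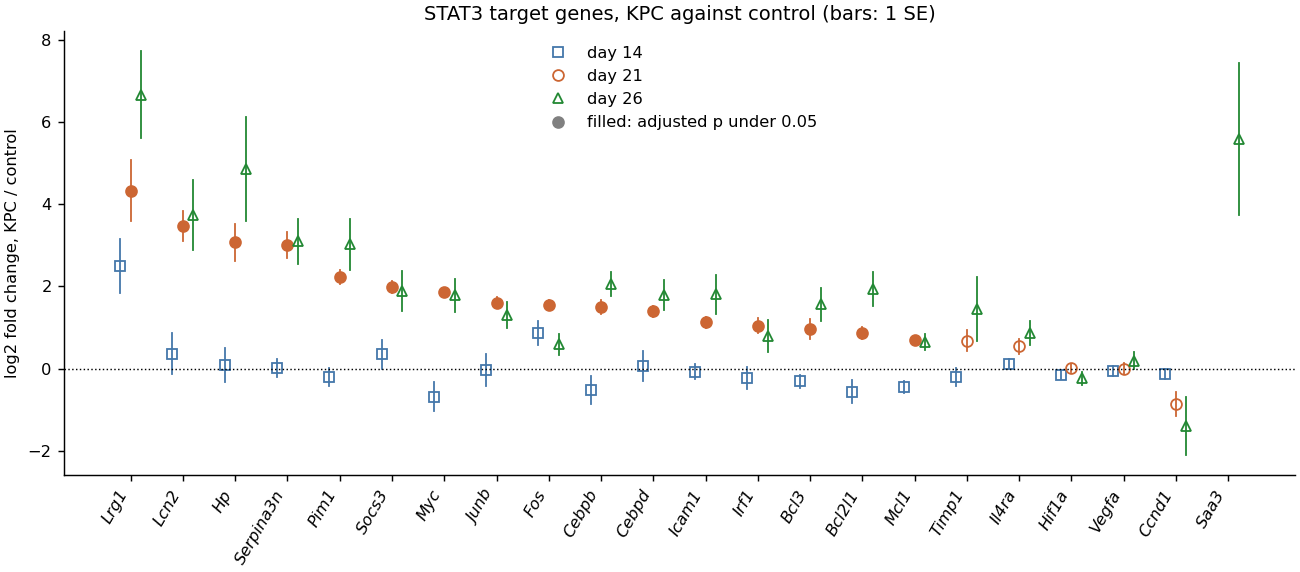
Log2 fold change of KPC against control for 22 STAT3 target genes at day 14 (squares), day 21 (circles) and day 26 (triangles), with bars of 1 SE; filled symbols have an adjusted p under 0.05. At day 21, 16 circles are filled and all of these lie above 0, while the highest day 14 square is Lrg1 at 2.50 and no square is filled.

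Across the 20 libraries Lifr, Osmr, Il6ra and Stat3 varied together. These correlations describe log2 CPM over libraries that share day, tumour and depth differences. Lifr and Stat3 had a Pearson r of 0.931, Il6ra and Stat3 of 0.901 and Osmr and Stat3 of 0.876. Il6 followed Osmr at 0.639 and Stat3 at 0.615. Lif ran against Osmr at -0.706, and Il6st was related to Il6 at 0.102. Among 11090 genes, those closest to Il6 were Ptx3, a long pentraxin (0.958), Tnfaip6, a hyaluronan-binding protein (0.953), the chemokine gene Cxcl1 (0.952) and Nfkbiz (0.916). Closest to Osmr were Ccbe1 (0.962), Cyp1b1 (0.958), Lvrn (0.957) and Cp, the ceruloplasmin gene (0.951). Closest to Stat3 were Smad7, an inhibitor of TGF-beta signalling (0.985), the glutamine synthetase gene Glul (0.973), Ip6k2 (0.970) and Acvr1b, an activin receptor (0.963).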

How the data were processed

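Messenger RNA of sorted progenitors was sequenced on a NextSeq 2000 after a stranded library preparation, per the labels' protocols. The values used are raw counts per gene, deposited by the authors in one table for each day, with 24419, 24419 and 24421 symbols. The submitters' processing notes name bcl2fastq 2.20, Bowtie, STAR, DESeq2 1.36.0, R 4.2.1 and the mm10 build, without roles. The day 14 and day 21 tables each hold 25 symbols turned into dates, which are not members.

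Genes were kept by filterByExpr (minimum count 10, minimum total 15), scaled by TMM and tested with edgeR 4.0.16 (robust quasi-likelihood test, R 4.3.3), with Benjamini-Hochberg adjustment over all genes tested. KPC was compared with control within each day, controls between days in one fit of 10 libraries, and the KPC effect between days in one fit of 20. Alternatives were DESeq2 1.42.0, other scalings, no filter, no robust option, pooled fits, a replicate term, library code and leaving out each library. The scripts were tested on simulated data. Likeness used log2 CPM with a prior count of 2 over genes with a mean of at least 1.

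The members and lists were chosen with earlier results of these data known. All 10 members are named, Socs3, Osm, Cntfr, Jak1, Jak2 and Tyk2 always, and otherwise the 3 called genes of each list with the largest change. One gene that this rule names is not reported here.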

Additional observations from a re-analysis of the deposited data

Results flagged for a closer look

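The 10 genes in KPC of day 14 and in controls of day 26 gave 20 sets of 4 values. Of these, 2 held a library far from the other 3 by Dixon's criterion. Chance meets it in about 1 of 20 independent sets, but these sets share their libraries. Il6ra was highest in control replicate 2 of day 26, at 53.2 CPM, and Clcf1 in KPC replicate 4 of day 14, at 8.14 CPM.

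The KPC effect differed between days in the edgeR test of the difference itself for 8 values. From day 14 to day 21 it grew by 5.73 on the log2 scale for Il6 and by 1.82 for Osmr. Controls of both genes were lower at day 21 than at day 14 (log2 -4.05 for Il6 and -0.69 for Osmr), which enters these differences. From day 14 to day 26 it grew by 3.30 for Il6, 2.21 for Lifr, 1.85 for Il6ra, 1.83 for Stat3, 1.78 for Osmr and 1.47 for Clcf1. Each day has its own library codes, so a difference between days and one between codes cannot be told apart.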

How the results depend on the processing

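For single genes, 601 values outside the fits that left out a library kept their direction and side of the threshold, 24 gained and 6 lost the call, and 9 changed sign. The replicate numbers do not pair the libraries: same-numbered KPC and control libraries had correlated deviations of -0.115 to 0.147. With a replicate block, Lifr (-0.060), Osmr (-0.019) and Clcf1 (-0.14) changed sign at day 14, Il11 at day 26 (0.14) and for the effect from day 21 to 26 (0.25), and Lifr in controls for day 26 against 21 (0.059) and against 14 (0.028). The block gave 361 called genes at day 14 instead of 149, and it called 1 member in controls for day 26 against 21. The fit of all 20 libraries gave Lif -0.0011 at day 14 and called 3 members at day 21, 5 at day 26 and 0 in controls for day 26 against 14. No filter gave Il6st -0.0035 for the effect from day 14 to 26. DESeq2 called 6 members at day 26, 4 for the effect from day 14 to 21 and 1 in controls for day 26 against 21. That last count was also 1 with RLE factors, library size alone and no robust option. Code 227 alone gave 6 at day 26.

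Leaving out 1 library gave 0 to 7 called members at day 26, 0 to 1 in controls for day 26 against 21, 0 to 2 for day 26 against 14, 2 to 4 for day 21 against 14, 1 to 5 for the effect from day 14 to 21, 0 to 3 from day 21 to 26 and 4 to 7 from day 14 to 26. Some uncalled log2 values spanned 0. At day 14 Lif ran from -0.20 to 0.37, Lifr from -0.057 to 0.22, Osmr from -0.025 to 0.21, Il11 from -0.86 to 0.072, Clcf1 from -0.15 to 0.16 and Stat3 from -0.25 to 0.051. At day 21 Il11 ran from -0.83 to 0.31, Il11ra1 from -0.092 to 0.12 and Clcf1 from -0.13 to 0.27, and at day 26 Il11ra1 from -0.63 to 0.066. In controls, Lifr and Stat3 ran from -0.14 to 0.055 and -0.21 to 0.083 (day 21 against 14), and from -0.21 to 0.052 and -0.086 to 0.054 (26 against 21). For day 26 against 14, Il6ra ran from -0.067 to 0.31, Lifr from -0.24 to 0.026, Il11 from -0.78 to 0.38 and Stat3 from -0.20 to 0.095. Effects from day 14 to 21 ran from -0.41 to 0.93 for Il11 and -0.20 to 0.28 for Clcf1, from day 21 to 26 from -0.30 to 0.13 for Osmr, -0.88 to 0.27 for Il11 and -0.65 to 0.015 for Il11ra1, and from day 14 to 26 from -0.051 to 0.055 for Il6st and -0.63 to 0.54 for Il11. The cause was not tested. Depth limits Il11, which has under 2 CPM in every library.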
